A study of Bos taurus with 27 samples.

Results

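The genes described here are the 150 whose RNA level varied least across 27 cattle (Bos taurus) embryos, out of 2800 well-counted candidates and 19994 genes in all. Levels are given in CPM, a gene's count scaled to the total of its file. Genes were ranked by mean CPM over the embryos, the 200 most counted were set aside, the next 2800 were kept as candidates, and the 150 with the lowest standard deviation (SD) of log2(CPM + 1) were taken. Because the spread over these same embryos chose the genes, their small spread is a description and no finding, and the tests reported for them below support nothing about their steadiness. The genes are known here only by Ensembl identifier, since 0 of 19994 identifiers matched the gene table used (RefSeq, assembly ARS-UCD2.0), so no function, position or sequence is given. The labelled tissue could therefore not be checked against marker genes.

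The embryos were collected on day 15 of pregnancy and each gave 1 library. Dams received an omega-3 or an omega-6 diet, and the labels class each embryo as long or short. Titles add a size number of unstated unit, an embryo number and a letter, m in 15 and f in 12 embryos, taken to stand for sex. There were 6 long omega-3 embryos (size numbers 10.5 to 20.3), 10 short omega-3 embryos (0.4 to 9.5) and 11 short omega-6 embryos (1.4 to 7.7). No long omega-6 embryo was analysed here, and neither breed, dams nor batches are named, so a p-value reflects only how far these particular embryos differ. Files held 17931620 to 29868584 counts (median 24349563).

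At this stage the cattle embryo, called the conceptus, floats free in the uterus while its outer layer, the trophectoderm, lengthens from a sphere to a filament. Comparing gene levels between embryos of such different size needs a scale, and genes with a steady level (reference genes) are the usual one in quantitative PCR. A reference is useful only if it keeps its level in samples that did not serve to choose it. In whole embryos, fewer cells of a type and less RNA per cell cannot be told apart.

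Several libraries stood apart, and the fits without them were chosen with earlier results of these data known. Omega-6 embryos 22 and 25 and the smallest embryo, omega-3 embryo 14, had the largest deviations over the 2800 candidates, with a median absolute log2 deviation from the other 26 embryos of 0.548, 0.399 and 0.247, against 0.0807 to 0.191 in the other 24. Long omega-3 embryo 07, labelled f, went against its letter. It had 926 counts of ENSBTAG00000045750 and 855 of ENSBTAG00000045544, the genes with the largest called difference toward m, against no more than 4 and 1 in any of the 11 remaining f embryos. In the 15 m embryos these genes held 10.5 to 78.1 and 27.1 to 58.3 CPM, and in embryo 07 41.1 and 38 CPM. Values without these embryos stand beside the results that follow where they were computed.

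The 150 genes spanned 56.9 to 591 mean CPM, with a median of 118 CPM against 108 CPM over the candidates. CPM are not per length, so these levels do not order the genes by transcript number. The SD of log2(CPM + 1) ran from 0.0655 to 0.122 (median 0.109) in the 150 genes and had a median of 0.242 over the candidates. The lowest count of any of them in any embryo was 988, and counting noise alone would give a median SD of only 0.0267. Most of their remaining spread thus exceeded counting error, with a median of 0.105 after its removal. The ratio of the highest to the lowest embryo ran from 1.16 to 1.56 (median 1.36), against a median of 2.08 over the candidates. Steady genes came from all levels. They numbered 50 of the 700 most counted candidates, 32 and 41 of the next sets of 700, and 27 of the 700 least counted.

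**Figure D1:**
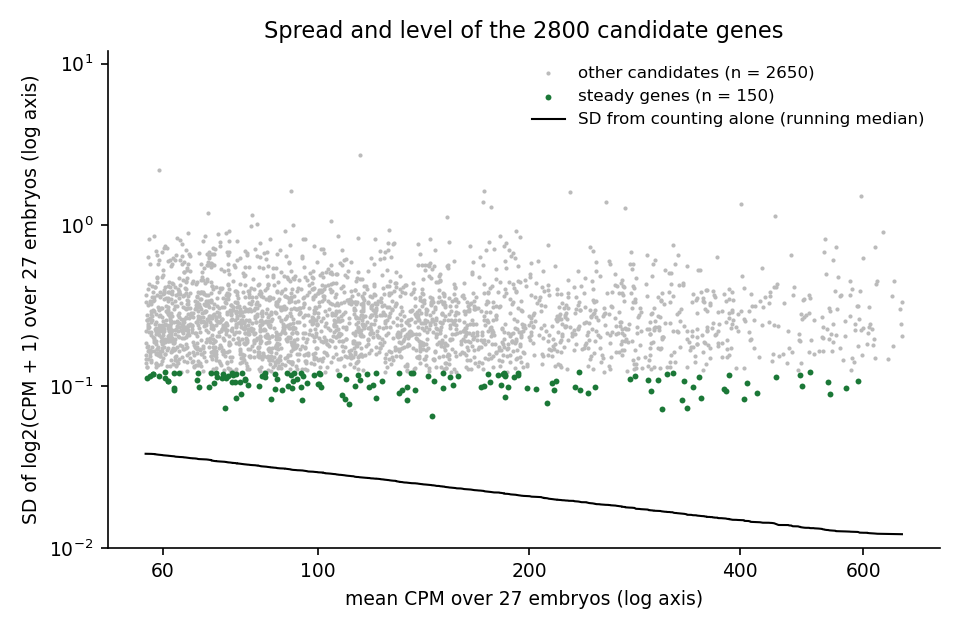
Each point is 1 of the 2800 candidate genes, with its mean CPM over 27 embryos on the horizontal log axis and the SD of log2(CPM + 1) on the vertical log axis; green points are the 150 steady genes and the black line is the running median of the SD that counting alone would give. The steady genes form the lower edge of the cloud at every level, at SDs of 0.0655 to 0.122, and all lie above the counting line.

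The steadiest gene of all was ENSBTAG00000019780, at 145 ± 6.65 CPM (SD, n = 27). In long omega-3 embryos its lowest, median and highest values were 135, 145 and 157 CPM. In short omega-3 embryos they were 136, 146 and 155 CPM, and in short omega-6 embryos 136, 144 and 156 CPM. The 3 groups overlapped almost completely, and the highest embryo exceeded the lowest by 1.16-fold.

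The next 5 by spread were of different abundance. ENSBTAG00000021067 averaged 310 ± 15.5 CPM (SD, n = 27), with 285 to 309 CPM in long omega-3, 279 to 326 in short omega-3 and 289 to 337 in short omega-6 embryos. ENSBTAG00000020026 averaged 73.5 ± 3.72 CPM, with 67.7 to 77.3, 70.8 to 80.6 and 63.4 to 77.5 CPM in the same groups. The omega-6 range of the latter reached lower than the others through embryo 19, which held 63.4 CPM, while the other omega-6 embryos held 71.3 CPM or more. ENSBTAG00000000099 averaged 336 ± 17.4 CPM and was tighter in omega-3 embryos (long 318 to 341 CPM, short 316 to 353) than in short omega-6 embryos (299.6 to 370.1), where embryo 22 was lowest and embryo 25 held 368 CPM. ENSBTAG00000014316 averaged 111 ± 5.96 CPM, with its highest value of 127 CPM in the smallest embryo. ENSBTAG00000016511 averaged 213 ± 11.6 CPM, with 195 to 211 CPM in long omega-3, 206 to 228 in short omega-3 and 186 to 231 in short omega-6 embryos. In all 6 genes the 3 groups overlapped.

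A like mean CPM did not go with a like spread. Among the 20 candidates nearest in mean CPM to the steadiest gene, the least steady was ENSBTAG00000015978, at 144 ± 85.9 CPM (SD, n = 27). It ran from 39.8 CPM in embryo 22 to 409 CPM in the largest embryo, 01, a 10.3-fold range. ENSBTAG00000003619, the third least steady of these 20, averaged 145 ± 42.2 CPM and ran from 43.4 to 211 CPM. Its lowest 2 values were those of embryos 25 and 22, at 43.4 and 59.3 CPM. Its level rose with size, by 0.266 ± 0.0568 log2 units per doubling of the size number (SE, edgeR adjusted p = 0.000838). ENSBTAG00000015978 was higher in long than in short omega-3 embryos, by 1.32 ± 0.309 log2 units (SE, edgeR adjusted p = 0.0398). Both genes were picked for a large spread over these embryos, so these tests are a description.

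**Figure D2:**
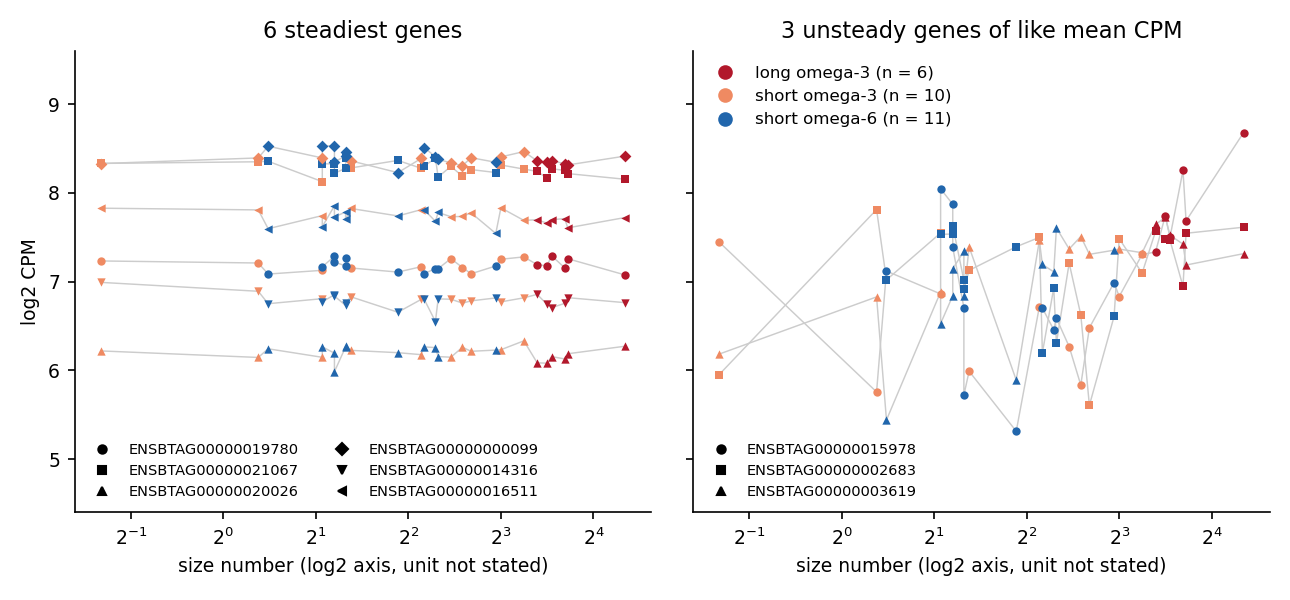
Log2 CPM of the 6 steadiest genes (left) and of 3 unsteady genes with a mean CPM near that of the steadiest (right) in each of 27 embryos, against the size number on a log2 axis; colour gives the group, marker shape the gene, and grey lines join the embryos of 1 gene. The 6 genes run nearly level from size 0.4 to 20.3, whereas the 3 others vary widely, ENSBTAG00000015978 over a 10.3-fold range.

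The most counted of the 150 were ENSBTAG00000016846 (591 ± 42.8 CPM, SD, n = 27), ENSBTAG00000022731 (567 ± 37.9), ENSBTAG00000005660 (537 ± 33.7) and ENSBTAG00000000215 (535 ± 40.6). ENSBTAG00000016846 was lowest in embryo 25, at 466.1 CPM, and ENSBTAG00000022731 was lowest in embryo 22, at 496 CPM. ENSBTAG00000000215 was lowest in the largest embryo, at 473 CPM, and highest in embryo 22, at 671 CPM.

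The edge of the set was not a gap. The last genes inside, ENSBTAG00000008472, ENSBTAG00000001394 and ENSBTAG00000020998, had SDs of 0.1220, 0.1221 and 0.1223. The first outside, ENSBTAG00000010193, ENSBTAG00000020645 and ENSBTAG00000025606, had 0.1224, 0.1226 and 0.1229. Their ranges were alike too, at 196 to 281 CPM for ENSBTAG00000020998 and 221 to 316 CPM for ENSBTAG00000010193.

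Whether steadiness carried over to embryos that did not choose the genes was examined across the diets. When the rule was applied to the 16 omega-3 embryos alone, the 150 genes it gave had a median SD of 0.086 there and of 0.167 in the 11 omega-6 embryos, where the candidates had 0.271. Of these genes, 129 of 150 (86%) lay below the candidates' median SD in the omega-6 embryos. In the reverse direction, 150 genes chosen in the omega-6 embryos had a median SD of 0.0963 there and of 0.137 in the omega-3 embryos, against 0.183 over the candidates, and 132 (88%) lay below the candidates' median. Steadiness was thus partly kept: the spread was 0.615 and 0.746 times that of the candidates, but larger than where the genes had been chosen. Leaving out embryos 22 and 25 narrowed the omega-6 spread of genes chosen in omega-3 embryos to 0.0985, against 0.164 over the candidates. Leaving out embryo 14 gave 0.12 in the omega-3 embryos for genes chosen in omega-6 embryos, against 0.168 over the candidates.

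The 2 sets chosen by diet shared 27 genes, 18% of each, where the sets held 5.36% of the candidates. All 27 were among the 150, but the same embryos chose that set, so nothing is read from this. The steadiest gene, ENSBTAG00000019780, had nearly the same SD in both diets, 0.0654 in omega-3 and 0.0665 in omega-6 embryos. Others were tighter in one diet, as ENSBTAG00000000099, with 0.0422 in omega-3 and 0.0967 in omega-6 embryos. ENSBTAG00000007725 showed the opposite order, with 0.0964 and 0.0656. These differences in SD between diets were not tested.

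Each embryo was then left out of the choice in turn and measured against the other 26. The 150 genes chosen without it lay closer to the mean of the others than the candidates did in every one of the 27 embryos. In the 24 embryos other than 14, 22 and 25 their median absolute log2 deviation ran from 0.0426 (embryo 02) to 0.11 (the largest embryo, 01), against 0.0807 to 0.191 over the candidates. Embryo 22 gave 0.24, embryo 25 gave 0.148 and embryo 14 gave 0.134, the 3 highest values. A deviation beyond 0.25 (1.19-fold) was found in 72 of 150 genes in embryo 22, 36 in embryo 25 and 25 in embryo 14, and in 0 to 14 genes in the other embryos. Of the candidates, 74.6%, 68.5% and 49.1% lay beyond it in embryos 22, 25 and 14, and 8.04% to 37.6% in the others, against 48%, 24% and 16.7% of the 150 genes in those 3 embryos.

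**Figure D3:**
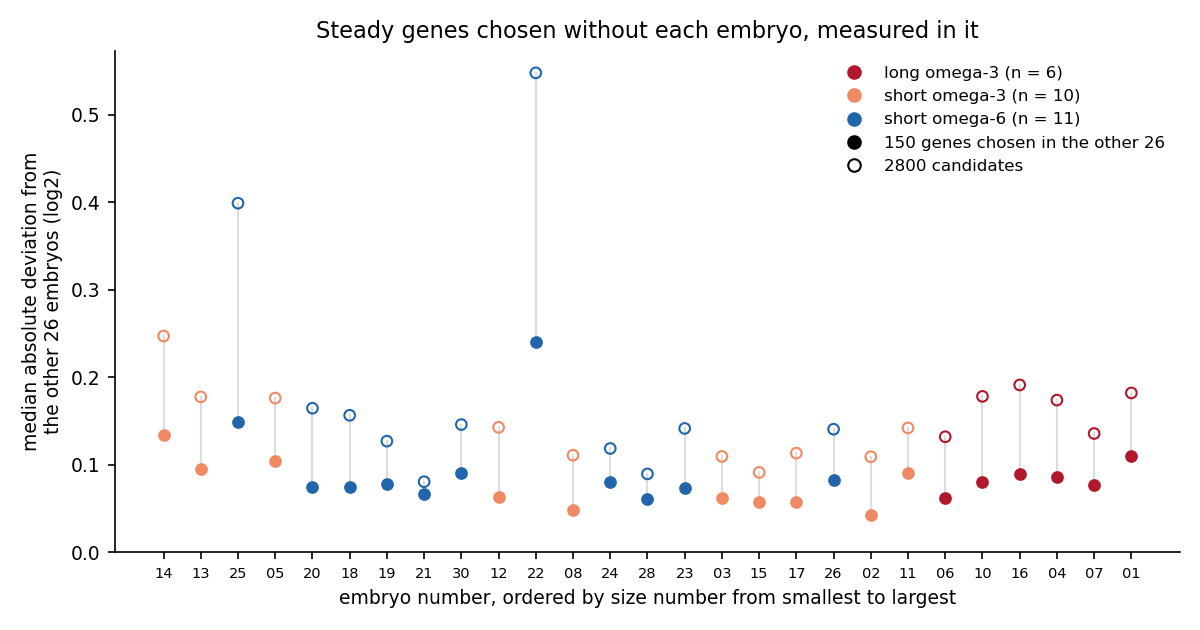
For each embryo (horizontal axis, by size from smallest to largest) the filled point is the median absolute log2 deviation, from the mean of the other 26 embryos, of the 150 steady genes chosen in those 26, and the open point is the same over their 2800 candidates; colour gives the group. The filled point lies below the open one in all 27 embryos, and is highest in embryos 22 (0.24), 25 (0.148) and 14 (0.134).

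Within the 150 genes themselves, chosen with all embryos, the same 3 embryos held the most departures. In embryo 14, 10 genes lay above the mean of the others by more than 0.25 and 1 below. ENSBTAG00000010934 was farthest above, at 89.7 CPM against 59.5 to 69.96 CPM in long embryos, and ENSBTAG00000002452 farthest below, at 52.2 CPM. In embryo 22, 14 genes lay above and 17 below. The extremes there were ENSBTAG00000006325, at 120 CPM against a median of 91.2 CPM over all embryos, and ENSBTAG00000005844, at 139 CPM against a median of 194 CPM. In embryo 25, 3 lay above and 11 below, with ENSBTAG00000008202 at 411 CPM (median 299.9 CPM) and ENSBTAG00000018802 at 73 CPM (median 95.8 CPM) as the extremes. ENSBTAG00000018802 was also low in embryo 22, at 77.6 CPM. Most departures in embryo 14 were upward, and those in embryos 22 and 25 went both ways.

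Among single embryos, the choice of genes leaned most on embryo 22. The rule kept 109 of the 150 genes without it, 127 without embryo 25 and 134 without embryo 14. Without each of the other 24 embryos in turn it kept 139 to 148, and without both 22 and 25 it kept 85. Applied without embryos 14, 22 and 25, the rule kept 83 of the 150 genes, and the new 150 had a median SD of 0.0874 in the 24 embryos left. Their levels in the 3 embryos had played no part in the choice. In embryo 22, 32 of them were higher and 56 lower by more than 0.25, with extremes of 1.31 and -1.85. In embryo 25, 16 were higher and 45 lower, and in embryo 14, 9 were higher and 3 lower. In embryo 22, 114 of the 150 (76%) fell outside the range of the other 24 embryos, against 68.3% of the candidates, in embryo 25 84 (56%) against 60%, and in embryo 14 39 (26%) against 32.8%. The chosen genes thus left their own range more often than the candidates in embryo 22 and less often in embryos 25 and 14. The choice over the same 24 embryos narrowed the ranges of the chosen genes, so these shares are not on equal terms. Over all 150 genes, the median absolute deviation from the mean of the other 24 embryos was 0.308, 0.206 and 0.115 in embryos 22, 25 and 14. That of the candidates was 0.568, 0.426 and 0.261. These medians include genes inside their range, so they do not tell how far genes passed it.

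The embryos' scale followed from the reference. For each embryo the median deviation of the 150 genes was taken as a log2 factor relative to its file total, centred over all embryos. It ran from -0.07 in the largest embryo to 0.08 in the smallest (SD 0.0408, n = 27). In long embryos its lowest, median and highest values were -0.07, -0.03 and -0.02. In short omega-3 embryos they were -0.04, 0.00018 and 0.08, and in short omega-6 embryos -0.06, 0.01 and 0.07. Every long embryo was thus below 0, while both short groups straddled it. On the same scale the 200 most counted genes took 39.4% of all counts in embryo 14, the smallest, and 44.8% in embryo 01, the largest. The 150 genes took 2.67% and 2.42% in the same embryos. The share of the 200 genes did not follow size throughout. It was 43% to 44.8% in long embryos, 39.4% to 45% in short omega-3 and 40.7% to 46.7% in short omega-6 embryos, highest in embryo 22 (size number 3.7). The part of these shares in the factors was not tested.

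TMM (trimmed mean of M-values), a factor computed from most genes, set embryos 22 and 25 apart. Relative to the other 24 embryos its log2 value was -0.39 in embryo 22 and -0.19 in embryo 25, while the 150 genes gave -0.01 and 0.03. Genes chosen without these embryos lay between, at -0.14 and -0.07. The median-ratio factor was close to TMM, at -0.43 and -0.19. For embryo 14 all 4 were positive, at 0.11 (TMM), 0.09 (the 150 genes), 0.07 (genes chosen without it) and 0.10 (median ratio). Across long and short omega-3 embryos the factor of the 150 genes differed from TMM by at most 0.08, and in the short omega-6 group by up to 0.36, in embryo 22. The 150 genes were chosen on file totals with embryos 22 and 25 included, so their factors near 0 there are not independent of the choice.

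**Figure D4:**
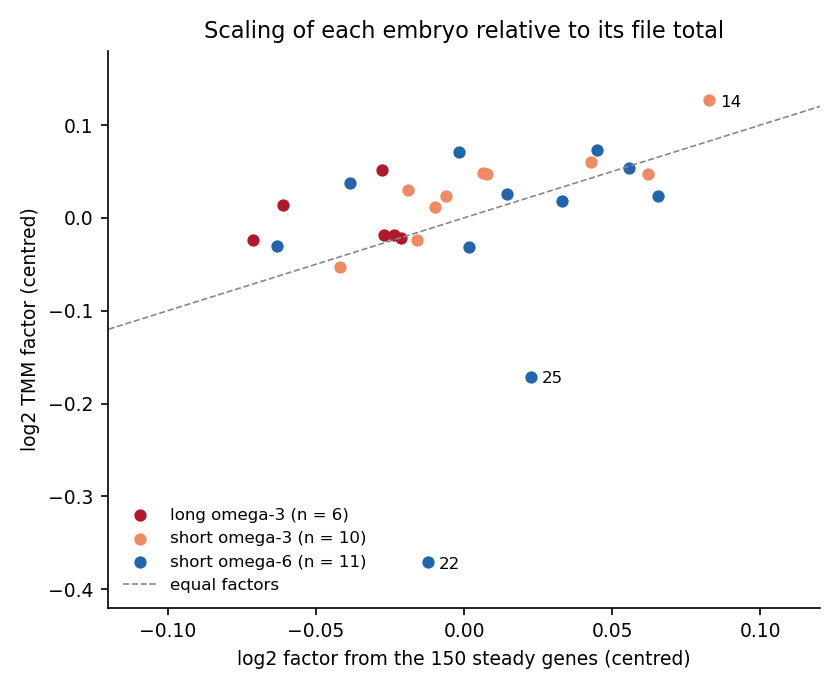
Log2 scaling factor of each embryo relative to its file total, centred over 27 embryos, from the 150 steady genes (horizontal axis) and from TMM (vertical axis), with colour for the group and a dashed line where both are equal; the axes have different scales. Most embryos lie near the line, and embryos 22 and 25 lie far below it, at TMM values of -0.37 and -0.17.

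Slopes of the 150 genes on size were shallow on every scale. With diet and letter in the model and TMM scaling, edgeR's quasi-likelihood slopes ran from -0.06 to 0.07 log2 units per doubling of the size number. Their median was -0.00836, and 56 were positive and 94 negative, whereas the candidates had a median of -0.02 and all 11919 genes tested 0.00225. On file totals, the scale of the rule, the median was -0.03, with 38 positive and 112 negative. The median slope was negative under each scaling tried, and was -0.00268 with the summed counts of the 150 genes as library size. That last scale is made of the same genes, so it holds their median slope small by construction. Over the 5.67 doublings between the smallest and the largest embryo, the median size of the file-total slope amounted to 0.17 log2 units. All 150 slopes had 95% intervals within 1.1-fold per doubling, as did 31.1% of all genes tested.

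Of the 150 genes, 7 passed the edgeR test for a slope (adjusted p below 0.05), 3 upward and 4 downward, where 28.9% of all genes passed (14.2% upward, 14.7% downward). In the same test 21 of the 150 had an unadjusted p below 0.05, as did 4718 of the 11919 genes tested. Since the rule held down the spread that size contributes to, nothing is read from those differences. The largest upward slope was that of ENSBTAG00000018471, at 0.07 ± 0.02 (SE, adjusted p = 0.0178), with 274, 304 and 346 CPM as lowest, median and highest in long omega-3 embryos. It held 264, 279 and 299.8 CPM in short omega-3 and 241, 264 and 317 CPM in short omega-6 embryos, so that the groups overlapped. Next came ENSBTAG00000016846, the most counted of the 150, at 0.06 ± 0.02 (SE, edgeR adjusted p = 0.0134). The steepest downward slopes were those of ENSBTAG00000000608, at -0.06 ± 0.02 (SE, edgeR adjusted p = 0.00841), and ENSBTAG00000006611, at -0.06 ± 0.02 (adjusted p = 0.0363). ENSBTAG00000000608 held 71.4, 79.4 and 81.1 CPM in long omega-3, 75.8, 83.1 and 98.9 in short omega-3 and 71.4, 89.1 and 94.4 in short omega-6 embryos. Its highest value was that of the smallest embryo.

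These calls depended on the scale and on single embryos. Without embryo 14, 1 of the 150 genes was called, where 2143 (18%) of all genes were. Without embryos 22 and 25, 30 were called, where 4706 (39.6%) of all genes were. On file totals 40 were called, 1 upward and 39 downward, where 32.6% of all genes were. With the 150 genes as library size 19 were called, 10 upward and 9 downward, where 29.3% of all genes were. That library size is the sum of these same genes, which balances their slopes by construction, so nothing is read from that balance. ENSBTAG00000018471, ENSBTAG00000016846 and ENSBTAG00000006611 lost their calls without embryo 14 (edgeR adjusted p = 0.0836, 0.0995 and 0.0509) with slopes of 0.07, 0.06 and -0.08. ENSBTAG00000016846 was also not called on file totals (slope 0.04, adjusted p = 0.111), nor ENSBTAG00000006611 without embryo 07 (-0.06, adjusted p = 0.0515) or without a count filter (-0.06, adjusted p = 0.0781). ENSBTAG00000000608 was called in every fit run.

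Over all genes, the scale set the balance of size calls. With TMM 1698 genes rose and 1752 fell, on file totals 1303 rose and 2582 fell, and with the summed counts of the 150 genes as library size 1680 rose and 1816 fell (edgeR). The reference from the 150 genes thus gave a balance near that of TMM, although the factors for embryos 22 and 25 differed.

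In the diet contrast at equal size, the sign of the 150 genes' median depended on the scale. With TMM, edgeR placed 134 of them lower and 16 higher in omega-3 embryos, with a median difference of -0.07 log2 units, against -0.05 over the candidates and 0.00366 over all genes. On file totals the direction turned, with 80 higher and 70 lower and a median of 0.00608. Without embryos 22 and 25 the TMM median was -0.01, with 55 higher and 95 lower. None of these single differences passed: edgeR, DESeq2 and limma-voom each called 0 of the 150 genes and 0% of all genes, with 11 of the 150 and 1415 of 11919 at an unadjusted p below 0.05 in edgeR. The 95% interval of the diet difference lay within 1.2-fold for 128 of the 150 genes, and within 1.5-fold for all of them. Over all genes tested these shares were 24.2% and 73.3%.

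**Figure D5:**
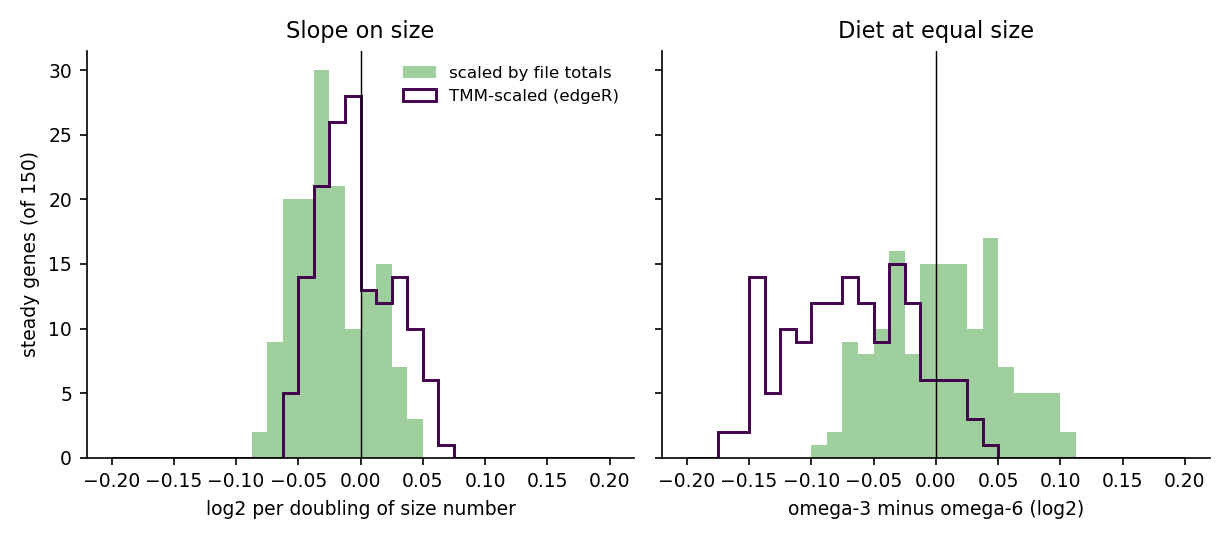
Histograms over the 150 steady genes of the slope on log2 size number (left) and of the omega-3 minus omega-6 difference at equal size (right), in log2 units, on file totals (filled, least squares) and with TMM scaling (outline, edgeR). Slopes have a median of -0.03 on file totals, where 112 of the 150 are negative, and of -0.00836 with TMM. The diet difference has a median of 0.00529 on file totals and of -0.07 with TMM. Slopes are per doubling of the size number, so the sizes of the shifts cannot be compared between the panels.

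Between long and short omega-3 embryos, 0 of the 150 genes were called by edgeR, where 1.42% of all genes were called (0.956% higher and 0.461% lower in long embryos). In edgeR, 4 of the 150 and 2346 of the 11919 genes tested had an unadjusted p below 0.05. DESeq2 called 0 of the 150, where it called 5.85% of all genes, and limma-voom 1, where it called 9.76%. In none of the 150 genes did the 6 long and the 10 short omega-3 embryos separate without overlap, as they did in 0.797% of all genes tested and in 47 of the 2800 candidates. The 95% interval of this difference lay within 1.2-fold for 124 of the 150 genes, and for 9.76% of all genes tested.

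Between embryos lettered m and f, 0 of the 150 genes were called by edgeR, DESeq2 or limma-voom. In edgeR, 3 of the 150 and 522 of the 11919 genes tested had an unadjusted p below 0.05. Over all genes edgeR called 0.386% (0.101% higher and 0.285% lower in m), DESeq2 0.654% and limma-voom 1.06%. At shares this low few or none of 150 genes would be called in any case, so nothing is read from the lack of calls. Without embryo 07 edgeR again called 0 of the 150, where it called 0.591% of all genes. In that fit 1 of the 150 and 594 of 12023 genes tested had an unadjusted p below 0.05. All 150 genes had 95% intervals within 1.2-fold, as did 32.9% of all genes tested.

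For use as references, the genes were compared by how firmly they held their place. Under 15 other ways of choosing (other scales, pseudocounts, rank windows, measures of spread and subsets of embryos), 9 of the 150 genes were chosen every time. A narrower rank window among these ways left out the less counted candidates, so such genes could not be chosen every time, however steady. ENSBTAG00000004736 (mean 77.7 CPM) and ENSBTAG00000013528 (mean 62.3 CPM) lay outside that window and were chosen in the 14 other ways. The 9 genes were singled out after their values were seen and are listed as a description. Besides ENSBTAG00000019780, ENSBTAG00000000099, ENSBTAG00000014316 and ENSBTAG00000016511, described above, they included ENSBTAG00000016999 (94.8 ± 5.50 CPM, SD, n = 27, 85.8 to 106 CPM) and ENSBTAG00000024909 (331 ± 18.5 CPM, 279.6 to 362 CPM). The others were ENSBTAG00000003882 (121 ± 6.96 CPM, 102 to 129.9 CPM), ENSBTAG00000007725 (352 ± 21.5 CPM, 318 to 409 CPM) and ENSBTAG00000003815 (185 ± 11.2 CPM, 164 to 215 CPM).

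These 9 genes were not free of the deviant embryos. Relative to the 24 others, their log2 deviation in embryo 22 was -0.25 for ENSBTAG00000024909 and -0.25 for ENSBTAG00000003882, and only 0.00899 for ENSBTAG00000016511. In the smallest embryo ENSBTAG00000007725 was higher by 0.23 and ENSBTAG00000014316 by 0.21. ENSBTAG00000016999 lay within 0.01 of the others there, at -0.00248. None of the 9 passed the edgeR test for size or diet, with adjusted p from 0.12 to 0.912 and from 0.414 to 0.969.

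The ratio of 2 genes within an embryo is free of any library scale. The mean SD of the log2 ratio of a gene to each of the other 149 ran from 0.114 to 0.17 (median 0.14). The lowest value was that of ENSBTAG00000007725, which ranked 15 by SD of log2(CPM + 1), and ENSBTAG00000019780 had 0.121. Without embryos 14, 22 and 25 the median was 0.125 and ENSBTAG00000007725 was again lowest, but without embryos 22 and 25 alone the lowest was ENSBTAG00000018425, at 0.106. The genes did not move as 1 block: the first principal component took 23.7% of their variance and the second 16%. Over the candidates these shares were 49.7% and 22.8%. The rule held down the spread over these same embryos, so nothing is read from that difference.

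The first component of the 150 genes ordered the embryos mostly by size, although the genes had been chosen for a level profile. Its score was lowest in the smallest embryo, 14, at -1.38, and highest in the largest, 01, at 1.03. Long omega-3 embryos scored 0.581 to 1.03, short omega-3 embryos from -1.38 to 0.781 and short omega-6 embryos from -0.77 to 0.73, so that the groups overlapped. Of the 150 genes, 116 had a negative loading (a lower level in embryos with a high score) and 34 a positive one. These scores rest on file totals. Without embryos 14, 22 and 25 the component took 26.3%, the lowest score was that of embryo 13, at -0.98, the highest that of embryo 01, at 0.99, and 121 loadings were negative.

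The mean of 150 chosen genes varied less than the single steadiest gene in both directions, but was not steadier than the mean of all candidates in both. The mean log2 level of the single steadiest gene chosen in omega-3 embryos had an SD of 0.0967 over the 11 omega-6 embryos. With 3, 10, 50 and 150 genes it was 0.0815, 0.0805, 0.0727 and 0.0507, and with all 2800 candidates 0.106. Chosen in omega-6 embryos and read in the 16 omega-3 embryos, the SD was 0.152, 0.114, 0.0787, 0.0764 and 0.0749 for 1, 3, 10, 50 and 150 genes, and 0.0492 with all candidates. With all embryos, the mean of the chosen genes was thus steadier than that of the candidates in omega-6 but not in omega-3 embryos. Without embryos 22 and 25 the omega-6 difference was gone, at 0.0371 for the 150 genes and 0.0372 for the candidates. Without embryo 14 the omega-3 values were 0.0604 for the 150 genes and 0.0458 for the candidates. No test was made of these SDs, since members of 1 set share embryos and file totals.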

How the data were processed

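Per the labels' protocols, libraries from total RNA were made with a stranded kit for polyadenylated RNA and read as single 100 bp reads on an Illumina NovaSeq. The deposited files hold whole-number read counts per Ensembl gene, not normalised by the authors. STAR and featureCounts are named in the submitters' processing notes; their versions and settings, the genome build and the annotation are not given in the sources used, so values of genes with near-identical copies are uncertain. All 351 pairs of libraries differed (chi-square per degree of freedom at least 13.6), so none was a copy.

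CPM used file totals, with a pseudocount of 1 for logs. Tests used edgeR 4.0.16 in R 4.3.3: filterByExpr on the 3 groups (minimum count 10, total 15, proportion 0.7), TMM and the quasi-likelihood F-test, two-sided, with Benjamini-Hochberg adjustment over 11919 genes and a threshold of 0.05. The model for size and diet held both, with size as log2, and the letter; that for size class and letter held group and letter. SEs are the log2 value over the square root of F. DESeq2 1.42.0 and limma 3.58.1 were alternatives. On simulated counts with 200 changed genes, edgeR recovered 84% of size slopes of 0.25 per doubling, and 61% of diet, 54% of size class and 67% of letter differences of 0.5.

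The genes, lists and alternatives were chosen with earlier results of these data known. Genes named are the 6 steadiest, the 4 most counted, 3 on each side of the threshold, the 2 steepest called slopes each way, the farthest gene each way in embryos 14, 22 and 25, and unsteady genes of like CPM (the rule did not fix how many neighbours, and 20 were used). Planned gene lists and cell type markers could not be used without gene names.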

Additional observations from a re-analysis of the deposited data

Results flagged for a closer look

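In the groups of 6 and 10 omega-3 embryos, 58 sets of values were looked at for a single embryo far from the others (Dixon's gap, which chance exceeds in about 1 in 20 groups), and 2 were found. ENSBTAG00000002452, one of the 150 genes, was at 72 CPM in long embryo 16, where the other 5 long embryos lay between 63.4 and 64.9 CPM. ENSBTAG00000002683, an unsteady candidate used for contrast, was at 123 CPM in long embryo 04, where the other 5 lay between 177 and 196 CPM.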

How the results depend on the processing

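Of the 150 genes, the rule kept 59 with TMM-scaled and 53 with median-ratio scaled CPM, 68 by median absolute deviation, 83 by SD after a fit on diet, size and letter, 85 without embryos 22 and 25, 83 without 14, 22 and 25, 67 in omega-3 and 79 in omega-6 embryos alone. The other 7 ways kept 104 to 149. The SD of the factor was 0.0922 with TMM and 0.0984 with median ratios. Counts of the 150 genes called for size were 40 on file totals, 19 with these genes as library size, 1 without embryo 14 and 30 without 22 and 25. The shares of all genes for these are given above. Without a count filter 4 were called (21.8% of all genes), with limma-voom 19 (34.6%) and with DESeq2 15 (31.7%). Between long and short omega-3 embryos limma-voom called 1 (9.76% of all genes). Over all genes, size calls were 2143 without embryo 14; m against f calls (46 as reported) were 126 with limma-voom, 78 with DESeq2, 86 without 22 and 25 and 71 without 07. Long against short omega-3 calls (169) were 87 unfiltered, 1163 with limma-voom, 697 with DESeq2, 49 without 14, 1007 without 22 and 25 and 41 without 07. The cause of these differences was not tested. None of 10 alternatives reversed the 4 steepest called slopes. Of 27 named genes among the 150, 8 changed the sign of their slope in at least 1 alternative, 4 of them on file totals, and 0 of these 8 were called. The values without embryos given for panels, ratios and the first component were chosen after seeing the data. Embryo numbers do not repeat across groups. No paired analysis was possible because the groups share no replicate numbers.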
